A study of Mus musculus with 24 samples.

Results

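The genes described here make and clear the oxysterol 25-hydroxycholesterol and carry its signal through the liver X receptors (LXRs). They are 7 of the 55471 genes counted in the deposited tables. *Ch25h* and *Cyp7b1* encode enzymes that form and break down the oxysterol, *Nr1h2* and *Nr1h3* encode LXRβ and LXRα, and *Abca1*, *Abcg1* and *Mylip* are target genes of the receptors. *Ch25h* had been selected on its own counts in these same libraries, so its values are a description and were not tested. The other 6 genes were added for their roles in the pathway, with earlier results of these data known, and their calls are read from a fit across all genes and are no independent evidence.

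RNA-seq was analysed in 24 libraries of 3T3 mouse embryonic fibroblasts (MEFs), an immortalized fibroblast line, in 8 groups of 3 libraries. The lines were wild type, *Lkb1*-/-, and A1 and A2, each a single clone of *Lkb1*-/-/*Crtc2*-/- MEFs made by CRISPR from the *Lkb1*-/- line. Each line was either left untreated or stimulated with interleukin-1β (IL-1β), an inflammatory cytokine, at 0.1 ng/mL for 6 hours. No label says whether the 3 libraries of a group came from separate cultures, so every test measures the spread between these libraries. Each genotype is 1 line or 1 clone, and a difference between genotypes cannot be told apart from a difference between the lines.

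Cholesterol 25-hydroxylase, the product of *Ch25h*, adds a hydroxyl group to cholesterol, and the enzyme is best known from macrophages exposed to interferon or bacterial products. Its product restrains cholesterol synthesis by holding SREBP2, the transcription factor for sterol synthesis genes, in the endoplasmic reticulum through the INSIG proteins. As an LXR ligand it also turns on genes of cholesterol export. LKB1 is a kinase that, through the salt-inducible kinases, keeps the coactivator CRTC2 in the cytoplasm and away from CREB, the factor that binds cAMP response elements.

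Counts on genes ranged from 38842901 to 48594394 read pairs per library, with a median of 42431965. *Stk11*, the gene of LKB1, without treatment averaged 86.0 ± 1.68 CPM (counts scaled to library size, mean ± SD of 3 libraries) in the wild-type line against 17.3 ± 1.24 in the *Lkb1*-/- line. *Crtc2* had 81.2 ± 1.80 CPM in untreated *Lkb1*-/- MEFs, 42.9 ± 2.11 in A1 and 49.8 ± 0.864 in A2. Of 9 fibroblast markers, 8 passed the filter on low counts and the list summed to between 5720 and 9930 CPM, but *Thy1* was at or near 0 in every group, and *Dcn* (0.411 CPM) and *Pdgfra* (4.58 CPM) were low in untreated wild-type MEFs against 218 and 342 CPM in untreated *Lkb1*-/- MEFs. Of 8 macrophage markers 3 passed the filter, and the list's sum ran from 2.49 to 5.13 CPM over the wild-type libraries and from 4.45 to 9.11 CPM over the others, with *Ptprc*, *Adgre1*, *Itgam* and *Tyrobp* at or near 0 throughout. Of the 3 that passed, *Csf1r* was over the filter's minimum in 0 wild-type libraries and in all 6 libraries of each other line. *Cd68* was over it in every library, and *Lyz2* in 3 libraries of A1 alone. Of 3 endothelial markers 1 passed, and their sum ran from 0.37 to 0.595 CPM over the wild-type libraries and from 2.06 to 3.8 CPM over the others. *Ddx3y*, a Y-linked gene looked up after its values were seen, had at most 0.0987 CPM in wild-type libraries and between 78.9 and 112 CPM in all others. Replicate 1 stood apart from replicates 2 and 3 in all 8 groups, with a chi-square per degree of freedom of 37.7 to 106 against 7.41 to 18.6 between replicates 2 and 3. The part of these line, marker and library differences in the results that follow was not tested, and in bulk RNA fewer cells of a type and less RNA per cell cannot be told apart.

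*Ch25h* was almost silent in wild-type MEFs, present in untreated *Lkb1*-/- MEFs, and rose several-fold with IL-1β in every line that lacked LKB1. It is a gene of 1 exon on the minus strand of chromosome 19 (GRCm38, 34473778 to 34475164). The 3 untreated wild-type libraries held 0, 0 and 1 counts and the 3 treated ones 0, 1 and 1. In untreated *Lkb1*-/- MEFs its level was 2.74, 4.01 and 2.81 CPM, and after IL-1β it was 20.4, 31.4 and 29.1 CPM. Both *Lkb1*-/- groups lay above every wild-type library and did not overlap with each other. The pooled level in *Lkb1*-/- MEFs was 403 times that of wild-type MEFs without treatment (exact 95% counting interval 72.0 to 15970) and 1660 times after IL-1β (459 to 13710). These intervals rest on 1 and 2 wild-type counts and cover counting error only.

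In clone A1, *Ch25h* had 1.88, 3.53 and 2.53 CPM untreated and 12.6, 15.9 and 17.7 CPM after IL-1β. Clone A2 had 0.886, 2.71 and 2.13 CPM untreated and 10.8, 18.2 and 19.9 CPM after IL-1β. After IL-1β the levels of both clones lay below all 3 *Lkb1*-/- libraries, while without treatment those of A1 overlapped with *Lkb1*-/- MEFs. The log2 fold change against *Lkb1*-/- MEFs after IL-1β was -0.81 ± 0.28 (SE) in A1 and -0.73 ± 0.28 in A2, and without treatment it was -0.27 ± 0.32 and -0.75 ± 0.32. Without replicate 1 of untreated A2, the lowest library, the last value was -0.39. The clones overlapped with each other under both treatments. The IL-1β response itself was 3.08 ± 0.31 on the log2 scale in *Lkb1*-/- MEFs, 2.54 ± 0.31 in A1 and 3.10 ± 0.32 in A2. The difference of the responses from *Lkb1*-/- MEFs was -0.54 ± 0.42 in A1 and 0.02 ± 0.41 in A2. Replicate 1 held the lowest *Ch25h* level in all 6 groups without LKB1.

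The bases just before the start of *Ch25h* hold a full cAMP response element, TGACGTCA, which is shown because CRTC2 works through factors that bind this element. The stretch below is from RefSeq on GRCm38.p6, chr19:34475169-34475298, minus strand, with the element in capitals. It covers bases 150 to 21 before the RefSeq start, which lies inside the gene model used for the counts.
Ch25h: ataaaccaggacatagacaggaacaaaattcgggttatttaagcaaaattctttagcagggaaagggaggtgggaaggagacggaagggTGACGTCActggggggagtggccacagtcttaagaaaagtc
Among 32851 promoters of 300 bases in the RefSeq table, 1.79% hold TGACGTCA, which reads the same on both strands. Of the 5 genes of the axis with an entry, *Ch25h* was the one with a match. *Cyp7b1* and *Abcg1* had no entry. The shorter TGACG, part of the same element, was found on either strand in 20.8% of promoters, among them those of *Ch25h* and *Nr1h2*. The AP-1 motif TGANTCA, the interferon response motif and the sterol motif TCACNCCAC had no match in these 5 promoters and were found in 7.81%, 3.44% and 1.24% of all. A match describes letters only and shows no binding.

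A second transcript model, *Gm26902*, lies over *Ch25h* on the opposite strand. Its counts were 20.7% to 49.5% of those of *Ch25h* in the 18 libraries without LKB1, whereas the opposite strand held 4.05% to 4.53% of stranded pairs over all genes. With unstranded counts, where pairs over both models are dropped, the *Ch25h* mean in treated *Lkb1*-/- MEFs was 18.7 CPM in place of 27.0, and its IL-1β response there was 3.05.

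*Cyp7b1*, the oxysterol 7α-hydroxylase that inactivates 25-hydroxycholesterol, was found in the same lines as *Ch25h*, at a lower level, rose with IL-1β in all 3 of them and was lower in both clones than in *Lkb1*-/- MEFs under both treatments. It has 6 exons on the minus strand of chromosome 3 (18071950 to 18243338). All 6 wild-type libraries held 0 counts, and a floor of 3 counts per library allowed up to 0.0714 CPM untreated and 0.0739 CPM after IL-1β on average. Untreated *Lkb1*-/- MEFs had 0.521, 0.719 and 0.476 CPM and treated ones 2.47, 3.93 and 4.85 CPM. Against that floor *Cyp7b1* was at least 8.01-fold higher in *Lkb1*-/- than in wild-type MEFs without treatment and at least 50.7-fold higher after IL-1β. It passed the filter on low counts through the lines that lack LKB1 alone, so it could be called in that direction only and no test against wild-type MEFs is given.

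In A1, *Cyp7b1* had 0.122, 0.192 and 0.184 CPM untreated and 0.687, 0.737 and 1.60 CPM after IL-1β. In A2 it had 0.0604, 0.139 and 0.198 CPM untreated and 0.728, 1.19 and 2.25 CPM after IL-1β. All clone libraries lay below the *Lkb1*-/- libraries of the same treatment. The untreated libraries held 5, 8 and 8 counts in A1 and 3, 6 and 9 in A2, under the minimum of the filter. In each comparison with an untreated clone, *Cyp7b1* therefore passed the filter through the higher group alone, and a call there is no independent evidence. The log2 fold change against *Lkb1*-/- MEFs was -1.77 ± 0.54 in A1 and -2.10 ± 0.55 in A2 without treatment (edgeR FDR = 0.016 and 0.0070), and -1.90 ± 0.40 and -1.44 ± 0.39 after IL-1β (edgeR FDR = 0.0014 and 0.0094). With IL-1β it rose by 2.71 ± 0.43 in *Lkb1*-/- MEFs, 2.57 ± 0.52 in A1 and 3.37 ± 0.52 in A2 (edgeR FDR = 6.9e-04, 0.012 and 5.0e-04). Both calls in A1 were near the threshold. The untreated difference from *Lkb1*-/- MEFs was lost without replicate 1 of untreated A1 (-1.59, edgeR FDR = 0.065), without replicate 2 of untreated *Lkb1*-/- MEFs (-1.57, 0.062) and with edgeR's newer method (0.074). The A1 response was lost without any 1 of the untreated A1 libraries (edgeR FDR = 0.068, 0.052 and 0.054 without replicates 1, 2 and 3), without replicate 3 of treated A1 (2.09, edgeR FDR = 0.063) and with the newer method (0.051). No difference in the response between lines was called for *Cyp7b1*: it was -0.13 ± 0.77 in A1 and 0.67 ± 0.67 in A2 relative to *Lkb1*-/- MEFs.

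**Figure D1:**
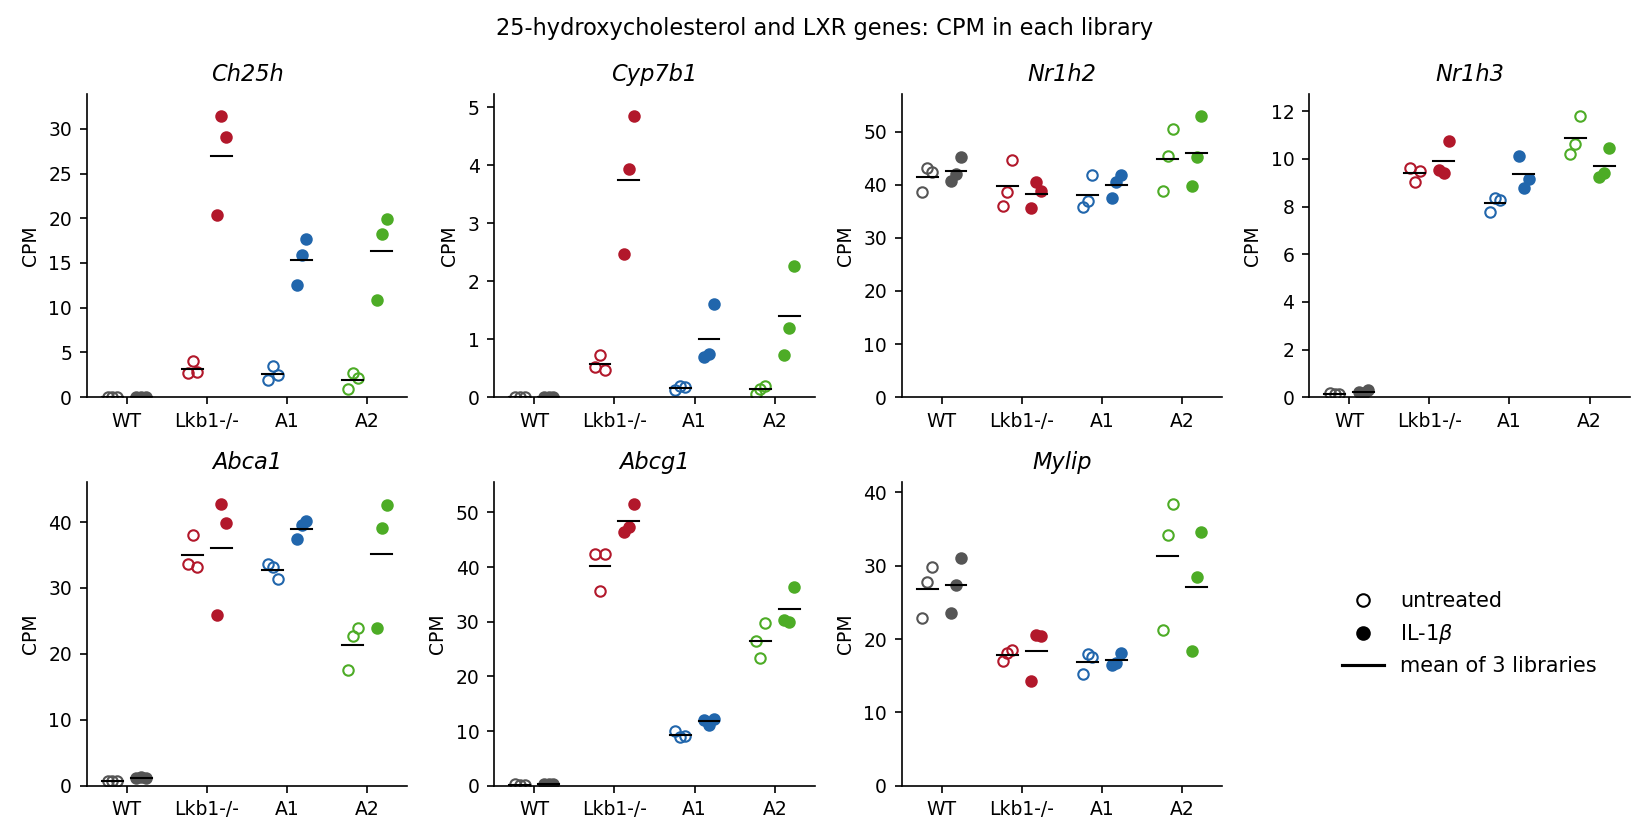
CPM (linear axes from 0) of the 7 genes in each of the 24 libraries, by line, with untreated libraries as open and IL-1β libraries as filled circles and the mean of 3 libraries as a bar. *Ch25h*, *Cyp7b1*, *Nr1h3*, *Abca1* and *Abcg1* were near 0 in wild-type MEFs (WT), *Nr1h2* lay between 35.7 and 52.9 CPM in all libraries, and *Ch25h* reached 31.4 CPM in treated *Lkb1*-/- MEFs.

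The receptors differed from each other in pattern. *Nr1h2* (chromosome 7, 44549616 to 44553951, minus strand), the LXR found in most cell types, had 38.7, 43.2 and 42.3 CPM in untreated wild-type MEFs and 36.1, 38.6 and 44.6 CPM in untreated *Lkb1*-/- MEFs, which overlapped. It was not called in any of the 15 comparisons in the fit without pairing, and its log2 fold changes between groups lay between -0.15 and 0.26. The highest was A2 against *Lkb1*-/- MEFs after IL-1β, at 0.26 ± 0.11 (edgeR FDR = 0.062), which was called with DESeq2 (FDR = 0.049), with upper quartile scaling (edgeR FDR = 0.020) and without replicate 1 of treated A2 (0.38, edgeR FDR = 0.0062). A fit blocked on the replicate numbers also called it for treated *Lkb1*-/- against wild-type MEFs (-0.15, edgeR FDR = 0.025), for A2 against *Lkb1*-/- MEFs untreated (0.17, 0.017) and treated (0.25, 8.9e-04), and for treated A2 against A1 (0.20, 0.0078). Leaving out the same replicate gave 0.30 (edgeR FDR = 0.027) for treated A2 against A1, and leaving out replicate 1 of untreated A2 gave 0.28 against *Lkb1*-/- MEFs and 0.32 against A1 (edgeR FDR = 0.037 and 0.016).

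*Nr1h3* (chromosome 2, 91184061 to 91202834, minus strand), the LXR that is prominent in liver, fat and macrophages, was low in wild-type MEFs and present in all lines that lacked LKB1. It had 0.156, 0.138 and 0.130 CPM in untreated and 0.222, 0.163 and 0.310 CPM in treated wild-type MEFs, from 5 to 12 counts a library. It had 9.62, 9.05 and 9.50 CPM in untreated and 9.55, 9.39 and 10.8 CPM in treated *Lkb1*-/- MEFs. The clones lay between 7.78 and 11.8 CPM, so the wild-type libraries did not overlap with any other group. The log2 fold change of *Lkb1*-/- against wild-type MEFs was 6.02 ± 0.16 without treatment and 5.41 ± 0.15 after IL-1β. *Nr1h3* too passed the filter through the other lines, with 1 wild-type library over its minimum, and no test of that difference is given. *Nr1h3* was not called between either clone and *Lkb1*-/- MEFs, although both untreated clones lay outside the *Lkb1*-/- range, and with the replicate block untreated A2 was called (0.21, edgeR FDR = 0.046). Untreated A2 exceeded untreated A1 by 0.42 ± 0.10 (edgeR FDR = 0.0034). IL-1β changed it in no line by this test, with values between -0.17 and 0.68.

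The receptors bind DNA with retinoid X receptors. *Rxra* rose from 58.9 ± 4.01 CPM in untreated wild-type to 99.6 ± 9.30 CPM in untreated *Lkb1*-/- MEFs (0.76 ± 0.14 on the log2 scale, edgeR FDR = 7.3e-05), and *Rxrb* by 0.61 ± 0.06 (edgeR FDR = 1.6e-08). Both were lower in untreated A1 than in *Lkb1*-/- MEFs, by -0.43 ± 0.14 and -0.46 ± 0.06 (edgeR FDR = 0.018 and 3.5e-06), and neither was called in untreated A2, where *Rxra* was called with the replicate block (0.23, edgeR FDR = 0.0064).

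Per kilobase of exon, *Nr1h2* stood at 11.9 ± 1.31 CPM in untreated *Lkb1*-/- MEFs, above *Mylip* (5.52 ± 0.255), *Abcg1* (5.50 ± 0.529), *Nr1h3* (3.73 ± 0.120), *Abca1* (3.37 ± 0.257), *Ch25h* (2.30 ± 0.517) and *Cyp7b1* (0.264 ± 0.0598). *Mylip* and *Abcg1*, neighbours in this order, differed by less than their spread. After IL-1β *Ch25h* reached 19.5 ± 4.19 CPM per kilobase in *Lkb1*-/- MEFs, the highest level of the 7 genes there, with *Nr1h2* at 11.4 ± 0.745.

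*Abca1* and *Abcg1*, the transporters that pass cholesterol to lipid-poor apolipoprotein A-I and to HDL particles, were both far higher in *Lkb1*-/- than in wild-type MEFs but differed between the clones. *Abca1* has 50 exons on the minus strand of chromosome 4 (53030787 to 53159895). Its start is shown because it holds a loose form of the LXR element, a direct repeat with 4 bases between its arms. The stretch is from RefSeq on GRCm38.p6, chr4:53159916-53160045, minus strand, bases 150 to 21 before the RefSeq start, with the match in capitals. It has the arms GGTNA and GGTCA, 5 bases apart, on the opposite strand.
Abca1: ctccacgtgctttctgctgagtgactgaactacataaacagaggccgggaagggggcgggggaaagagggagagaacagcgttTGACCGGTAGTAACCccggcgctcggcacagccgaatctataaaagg
This loose form was found on either strand in 0.207% of the 32851 promoters, and it was searched after the exact form, 2 copies of AGGTCA with 4 bases between, found in 0.0152% of them, had no match in the 5 promoters. The other 4 promoters did not hold the loose form.

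*Abca1* had 0.714, 0.668 and 0.652 CPM in untreated and 1.21, 1.28 and 1.19 CPM in treated wild-type MEFs. It had 33.6, 38.0 and 33.2 CPM in untreated and 25.9, 42.7 and 39.9 CPM in treated *Lkb1*-/- MEFs, with replicate 1 the lowest of the treated libraries. The log2 fold change of *Lkb1*-/- against wild-type MEFs was 5.68 ± 0.24 without treatment and 4.88 ± 0.22 after IL-1β (edgeR FDR = 2.0e-14 and 7.5e-14). Clone A1 overlapped with *Lkb1*-/- MEFs, at 33.6, 33.2 and 31.4 CPM untreated and 37.4, 39.6 and 40.1 CPM after IL-1β. Untreated A2, at 17.5, 22.6 and 23.9 CPM, lay below both, with a log2 fold change of -0.71 ± 0.17 against *Lkb1*-/- MEFs (edgeR FDR = 0.0029) and -0.62 ± 0.17 against A1 (edgeR FDR = 0.0081). After IL-1β A2 had 23.9, 39.1 and 42.6 CPM and overlapped with both.

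IL-1β raised *Abca1* in A2 by 0.72 ± 0.17 (edgeR FDR = 0.012), although replicate 1 of treated A2 lay within the untreated range, and the call was lost when the untreated and treated A2 libraries alone were fitted (0.75, edgeR FDR = 0.16). In *Lkb1*-/- MEFs the response was 0.05 ± 0.17 and in A1 it was 0.25 ± 0.17, neither of them called. In wild-type MEFs it was 0.85 ± 0.29, with no overlap between 3 untreated libraries of 25 to 32 counts and 3 treated libraries of 46 to 55 counts. This value was not called in the fit of all libraries and was called by DESeq2 (FDR = 0.048) and with replicates 2 and 3 alone (0.90, edgeR FDR = 0.0071), as was A1 with those replicates (0.30, edgeR FDR = 0.032). The responses were not called different from that of *Lkb1*-/- MEFs in wild-type MEFs or in either clone.

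*Abcg1* (chromosome 17, 31057675 to 31117988, plus strand, 16 exons) separated all 4 lines. It had 0.268, 0.184 and 0.104 CPM in untreated wild-type and 42.3, 35.7 and 42.3 CPM in untreated *Lkb1*-/- MEFs (log2 fold change 7.71 ± 0.18, edgeR FDR = 3.6e-18). After IL-1β wild-type MEFs had 0.370, 0.234 and 0.336 CPM and *Lkb1*-/- MEFs 46.3, 47.3 and 51.5 CPM, a change of 7.26 ± 0.17 (edgeR FDR = 4.6e-18). Clone A1 was the lower of the clones, with 9.97, 8.93 and 9.01 CPM untreated and 12.1, 11.1 and 12.2 CPM after IL-1β.

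Clone A2 lay between A1 and *Lkb1*-/- MEFs, with 26.5, 23.4 and 29.7 CPM untreated and 30.4, 30.0 and 36.4 CPM after IL-1β. No 2 lines overlapped under either treatment. Against *Lkb1*-/- MEFs *Abcg1* was lower by -2.11 ± 0.12 in A1 and -0.59 ± 0.11 in A2 without treatment (edgeR FDR = 4.4e-11 and 3.0e-04), and by -2.03 ± 0.12 and -0.58 ± 0.11 after IL-1β (edgeR FDR = 5.8e-11 and 3.2e-04). A2 exceeded A1 by 1.51 ± 0.12 and 1.45 ± 0.11 (edgeR FDR = 5.2e-09 and 8.5e-09). IL-1β values were 0.27 ± 0.11 in *Lkb1*-/- MEFs, 0.34 ± 0.12 in A1 and 0.28 ± 0.11 in A2. None was called in the fit without pairing, while all were called with the replicate block (edgeR FDR = 0.014, 0.010 and 0.011). In each of these lines the treated libraries lay above the untreated ones without overlap.

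*Mylip* (chromosome 13, 45389742 to 45412022, plus strand), also called IDOL, the ubiquitin ligase that sends lipoprotein receptors to degradation, went the other way from the transporters. It had 22.9, 27.8 and 29.8 CPM in untreated wild-type and 17.0, 18.1 and 18.6 CPM in untreated *Lkb1*-/- MEFs, which did not overlap, a log2 fold change of -0.59 ± 0.20 (edgeR FDR = 0.018). After IL-1β wild-type MEFs had 23.5, 27.4 and 31.0 CPM and *Lkb1*-/- MEFs 14.3, 20.6 and 20.4 CPM, a change of -0.57 ± 0.20 (edgeR FDR = 0.022). That call was lost without replicate 1 of treated *Lkb1*-/- MEFs (-0.41, edgeR FDR = 0.12) and without replicate 3 of treated wild-type MEFs (-0.50, edgeR FDR = 0.057).

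Clone A1 was close to *Lkb1*-/- MEFs in *Mylip*, at 15.3 to 18.1 CPM over both treatments. Clone A2 had 21.2, 34.2 and 38.4 CPM untreated and 18.4, 28.5 and 34.6 CPM after IL-1β. Replicate 1 held the lowest *Mylip* level in all 8 groups of the study, as it did for *Nr1h2*. Untreated A2 exceeded *Lkb1*-/- MEFs by 0.81 ± 0.20 and A1 by 0.89 ± 0.20 (edgeR FDR = 0.0040 and 0.0020). After IL-1β A2 exceeded *Lkb1*-/- MEFs by 0.56 ± 0.20 (edgeR FDR = 0.039) and A1 by 0.67 ± 0.20 (edgeR FDR = 0.016). The first of these was lost without replicate 1 of treated *Lkb1*-/- MEFs (0.40, edgeR FDR = 0.18), without replicates 2 or 3 of treated A2 (0.54 and 0.34, edgeR FDR = 0.075 and 0.22) and in a fit of only those 2 groups (0.52, edgeR FDR = 0.11). The second was lost without replicates 1 or 2 of treated A1 (0.64 and 0.65, edgeR FDR = 0.051 and 0.053) and without replicate 3 of treated A2 (0.45, edgeR FDR = 0.11). IL-1β changed *Mylip* in no line by this test, with values between -0.20 and 0.05.

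**Figure D2:**
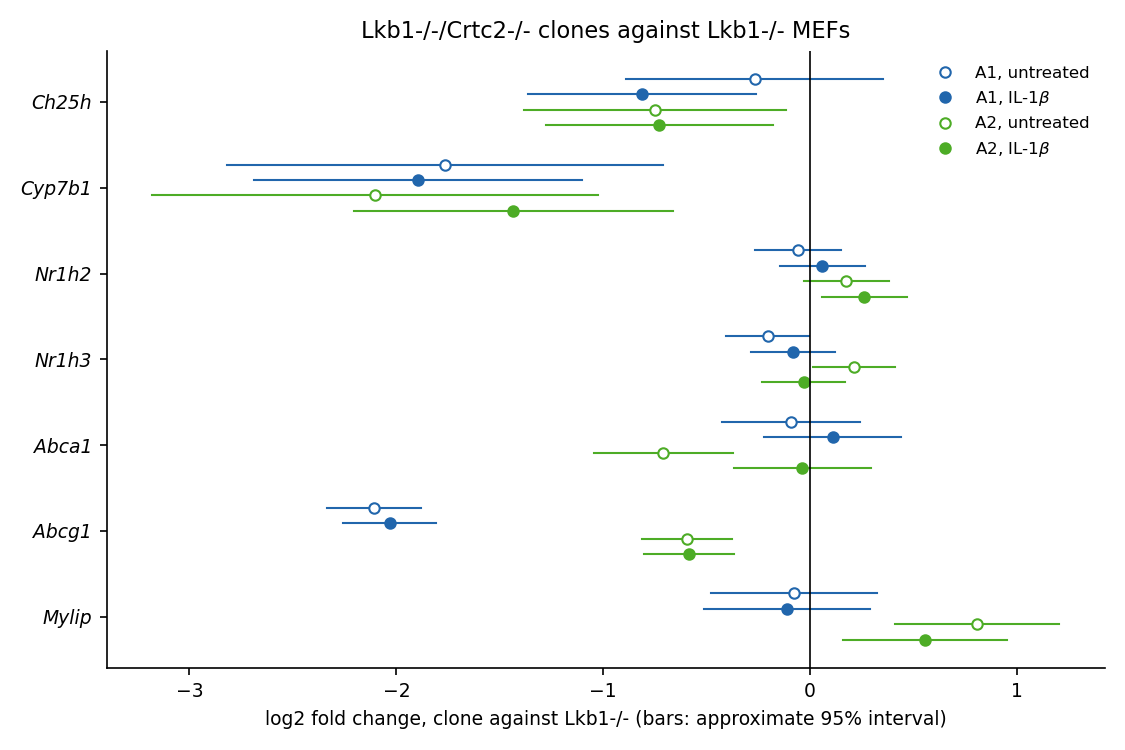
Log2 fold change of each clone against *Lkb1*-/- MEFs for the 7 genes, with approximate 95% intervals as bars, untreated as open and IL-1β as filled circles. *Ch25h*, *Cyp7b1* and *Abcg1* lay below 0 in both clones and treatments, with an interval that crossed 0 for *Ch25h* in untreated A1. *Abca1* was -0.71 in untreated A2 and *Mylip* 0.81.

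Counted over the 6 tested genes, 4 were higher and 1 lower in *Lkb1*-/- than in wild-type MEFs under both treatments. Of all 17522 genes tested, 30.1% were higher and 25.8% lower without treatment, 55.9% in all, and 30.2% were higher and 27.1% lower after IL-1β, 57.4% in all. The 4 that were higher were *Cyp7b1*, *Nr1h3*, *Abca1* and *Abcg1*, and *Mylip* was lower. *Cyp7b1* and *Nr1h3* passed the filter through the lines that lack LKB1, so they had to be higher there, and of the other 4 genes 2 were higher and 1 lower. With the replicate block 4 of the 6 were higher and 2 lower after IL-1β, with *Nr1h2* added. Under the block 34.4% of all genes were higher and 31.5% lower there.

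Against *Lkb1*-/- MEFs, 2 of the 6 were lower and 0 higher in A1 under both treatments. Of all genes tested, 16.4% were lower and 18.9% higher in untreated A1, 35.3% in all, and 17.3% and 19.4% in treated A1, 36.7% in all. In A2, 3 of the 6 were lower and 1 higher untreated, where 15.1% of all genes were lower and 17.1% higher, 32.3% in all. After IL-1β 2 were lower and 1 higher, where 15.8% were lower and 17.1% higher, 32.8% in all. With the replicate block 3 were lower and 3 higher in untreated A2, and 2 lower and 2 higher in treated A2. The share of all genes under the block is not given for comparisons of the clones, so these counts are not read against it. Between the clones, 3 were higher and 1 lower in A2 than in A1 without treatment, where 15.8% of all genes were higher and 16.7% lower, 32.5% in all. After IL-1β 2 were higher and 0 lower, where 15.1% were higher and 15.6% lower, 30.7% in all. The block gave 3 higher and 0 lower there. The same *Lkb1*-/- libraries serve the comparisons of both clones. *Cyp7b1* was among the lower genes of both clones, and untreated it passed the filter through the *Lkb1*-/- group of the comparison alone.

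IL-1β called fewer genes in all lines, and few of the axis. In *Lkb1*-/- MEFs 1 of the 6 was higher, where 2.65% of all genes were higher and 2.09% lower, 4.74% in all. In A1 1 was higher, where 1.2% were higher and 0.788% lower, 1.99% in all. In A2 2 were higher, where 2.81% were higher and 2.86% lower, 5.68% in all. *Cyp7b1* made up the count in *Lkb1*-/- MEFs and A1, and *Cyp7b1* and *Abca1* in A2. In each clone *Cyp7b1* passed the filter through the treated libraries alone. With the replicate block *Abcg1* was added in each, which gave 2, 2 and 3 members, all higher. Under the block 5.77% of all genes were higher and 9.07% lower in *Lkb1*-/- MEFs, 14.8% in all, 3.68% and 5.94% in A1, 9.61% in all, and 7.27% and 10.6% in A2, 17.9% in all. In wild-type MEFs edgeR called 0 of the 6, where 1.53% of all genes were higher and 0.731% lower, 2.26% in all. There 1 of the 6 had an unadjusted edgeR p under 0.05, DESeq2 called 1, *Abca1*, and the block called 0 of the 6, where 4.7% of all genes were higher and 4.59% lower, 9.3% in all.

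The IL-1β response of none of the 6 was called different by edgeR between lines. Of all genes, 0.245% were called for *Lkb1*-/- against wild-type MEFs (0.137% higher and 0.108% lower), 0.0285% for A1 against *Lkb1*-/- MEFs, all of them lower, and 0% for A2 against *Lkb1*-/- MEFs. At an unadjusted edgeR p under 0.05 the member counts were 1, 0 and 1, and DESeq2 called 0 in each.

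**Figure D3:**
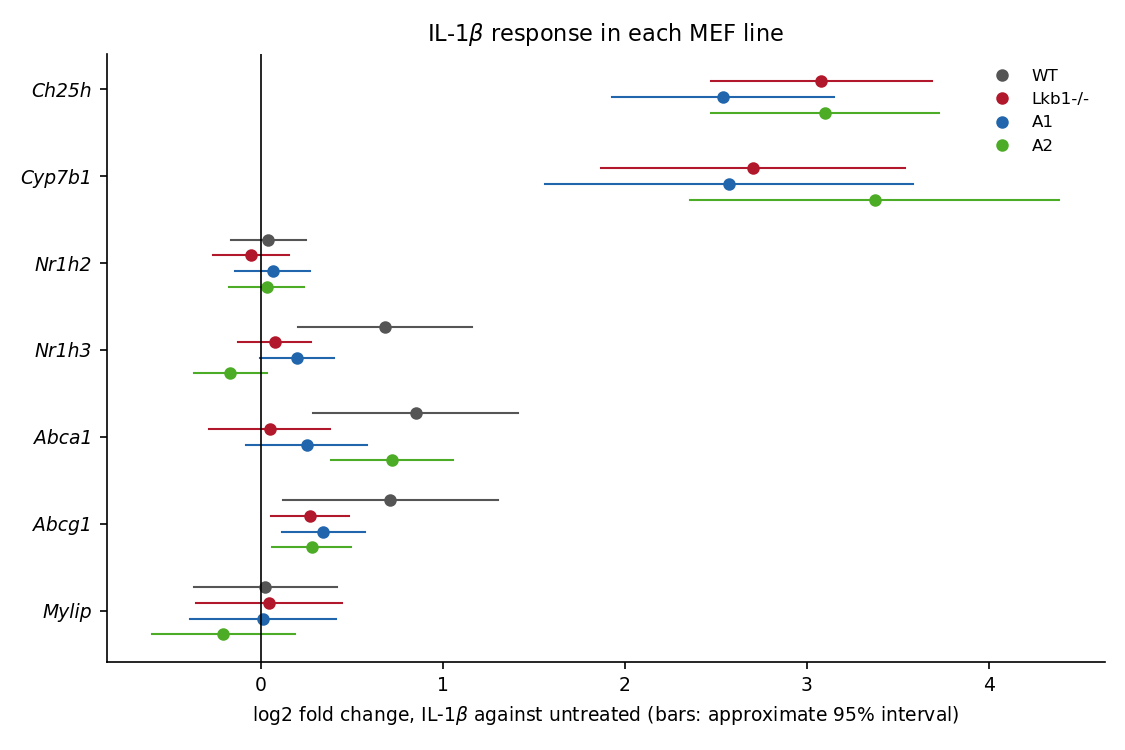
Log2 fold change of IL-1β against no treatment in each line, with approximate 95% intervals as bars. *Ch25h* (2.54 to 3.10) and *Cyp7b1* (2.57 to 3.37) stood apart from the other 5 genes in the 3 lines without LKB1, and have no wild-type value because those libraries were at or under 3 counts.

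The other genes of the pathway were read from 5 lists, without the 7 genes above. In untreated *Lkb1*-/- against wild-type MEFs, 4 of 5 tested genes of oxysterol formation and breakdown were higher and 0 lower, where 30.1% of all genes were higher and 25.8% lower. *Cyp27a1* and *Sult2b1* passed the filter through the lines that lack LKB1 alone and could be called higher only, and of the other 3 genes 2 were higher. The 4 were *Cyp27a1* and *Cyp46a1*, which hydroxylate the cholesterol side chain, *Cyp39a1*, a 7α-hydroxylase, and *Sult2b1*, a sterol sulfotransferase. *Sult2b1* averaged 1.09 ± 0.172 CPM in *Lkb1*-/- against 0.0809 ± 0.0542 CPM in wild-type MEFs (log2 fold change 3.73 ± 0.44). *Cyp39a1* rose from 3.16 ± 0.868 to 14.1 ± 3.64 CPM (2.15 ± 0.27, edgeR FDR = 7.7e-07). *Cyp46a1* rose by 1.43 ± 0.38 (edgeR FDR = 0.0028). *Cyp27a1* had 1 wild-type count, and its pooled level was 49.0 times higher (exact 95% counting interval 8.39 to 1972). *Hsd3b7*, which acts after *Cyp7b1* in oxysterol breakdown, was not called between these lines and rose by 1.20 ± 0.39 in untreated A2 against *Lkb1*-/- MEFs (edgeR FDR = 0.021), while after IL-1β the value was 0.55 ± 0.38 (edgeR FDR = 0.29). *Gpr183*, the receptor for a breakdown product of 25-hydroxycholesterol, had between 0 and 1 counts a library.

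Between *Lkb1*-/- and wild-type MEFs the LXR target list moved in both directions. Of 11 tested genes, 4 were higher and 3 lower in untreated *Lkb1*-/- than in wild-type MEFs, where 30.1% of all genes were higher and 25.8% lower. *Lpl*, among the 4, passed the filter through the lines that lack LKB1 alone. Their median change was 0.08 on the log2 scale against 0.04 over all genes. After IL-1β 3 were higher and 5 lower, where 30.2% of all genes were higher and 27.1% lower, with a median of -0.32 against 0.03 over all genes. The replicate block gave 3 higher and 6 lower there, where it called 34.4% of all genes higher and 31.5% lower, 65.9% in all, with *Pltp*, a phospholipid transfer protein named after its values were seen, added (-0.50, edgeR FDR = 7.9e-05, against 0.052 without the block). *Lpl*, lipoprotein lipase, had 3 counts in all untreated wild-type libraries, and its pooled level in *Lkb1*-/- MEFs was 68.5 times higher (exact 95% counting interval 23.1 to 335). *Lpl* rose further in the clones, by 1.61 ± 0.22 in untreated A1 and 3.26 ± 0.23 in untreated A2 against *Lkb1*-/- MEFs (edgeR FDR = 1.6e-05 and 5.8e-09). *Mertk*, a receptor for the uptake of dying cells, fell from 10.8 ± 1.63 to 1.56 ± 0.174 CPM (-2.79 ± 0.18, edgeR FDR = 1.5e-11), and *Smpdl3a*, a phosphodiesterase, changed by -2.62 ± 0.36 (edgeR FDR = 2.0e-06). *Arl4c*, a small GTPase, was 1.12 ± 0.14 higher in *Lkb1*-/- than in wild-type MEFs, and untreated A2 lay below A1 by -1.76 ± 0.14 (edgeR FDR = 6.8e-07 and 1.2e-08). *Srebf1*, the lipogenic SREBP, was not called without treatment, at -0.16 ± 0.09 (edgeR FDR = 0.13). IL-1β lowered 3 of the 11 in *Lkb1*-/- MEFs, 1 in A1, 2 in A2 and 1 in wild-type MEFs. It raised 0 in any line, and 2.09%, 0.788%, 2.86% and 0.731% of all genes were lower. With the replicate block 6, 4, 6 and 2 were lower, where 9.07%, 5.94%, 10.6% and 4.59% of all genes were lower. The block called 1 higher in A2, where 7.27% of all genes were higher.

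Of 14 tested genes of sterol transport and storage, 3 were higher and 4 lower in untreated *Lkb1*-/- than in wild-type MEFs, against the same shares of 30.1% and 25.8% over all genes. *Gramd1c*, of the family that moves cholesterol from the plasma membrane to the endoplasmic reticulum, rose from 0.232 ± 0.108 to 6.43 ± 0.697 CPM (4.79 ± 0.23, edgeR FDR = 2.2e-13), and was higher again in both untreated clones, by 0.78 ± 0.16 in A1 and 0.96 ± 0.16 in A2 (edgeR FDR = 6.2e-04 and 9.8e-05). *Gramd1b* rose by 1.15 ± 0.18 (edgeR FDR = 1.1e-05). *Soat1*, which esterifies cholesterol, fell from 215 ± 8.86 to 94.1 ± 1.46 CPM (-1.19 ± 0.06, edgeR FDR = 2.9e-13). *Lipa*, lysosomal acid lipase, was called higher in treated *Lkb1*-/- than in treated wild-type MEFs (1.23 ± 0.27, edgeR FDR = 4.6e-04). Of 7 tested receptor partners and coregulators 3 were higher and 3 lower without treatment, against those shares. With IL-1β 0 of the 7 were called in any line. The replicate block called 5 lower in *Lkb1*-/- MEFs, 3 in A1 and 3 in A2, where 9.07%, 5.94% and 10.6% of all genes were lower.

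**Figure D4:**
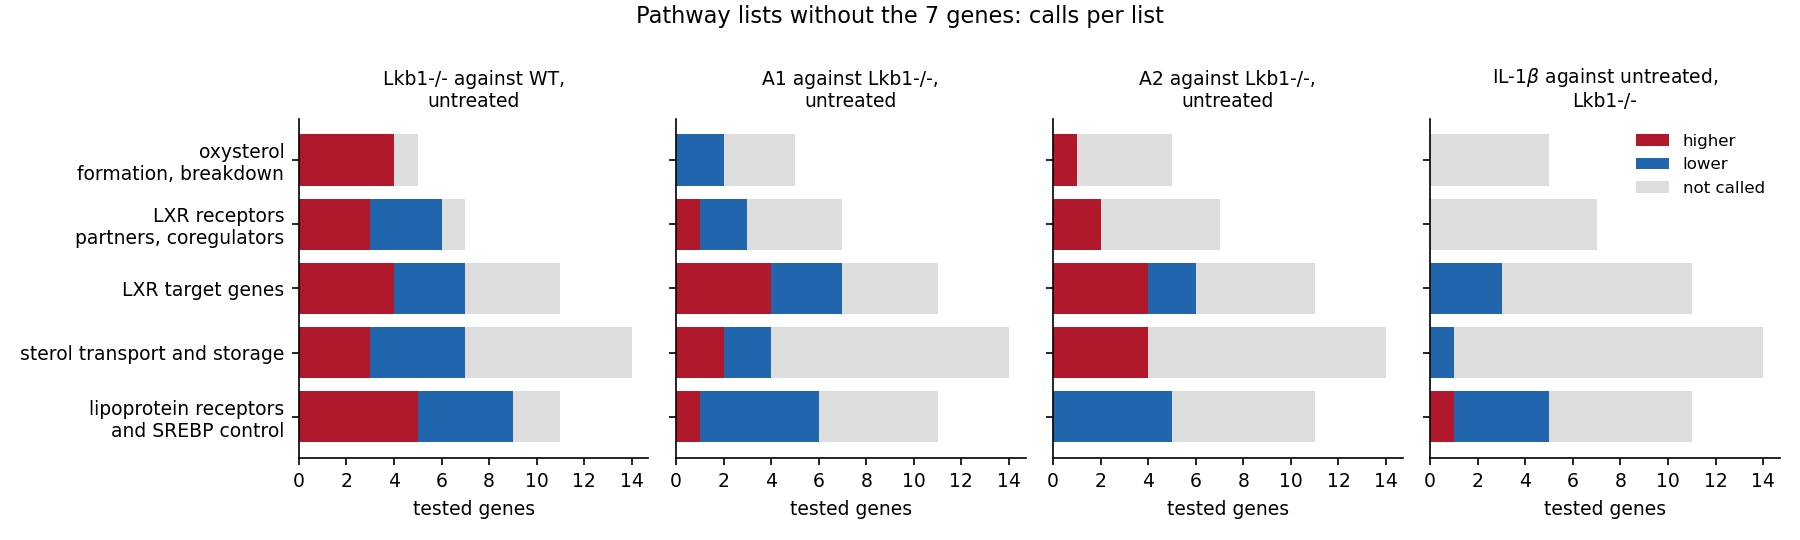
Number of tested genes called higher, lower or not called in each of the 5 pathway lists, without the 7 genes of the axis, in 4 comparisons. In untreated *Lkb1*-/- against wild-type MEFs 4 of 5 oxysterol genes were higher, 2 of which could be called in that direction only, and with IL-1β in *Lkb1*-/- MEFs 4 of 11 genes of lipoprotein receptors and SREBP control were lower and 1 higher.

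Of the 11 genes of lipoprotein receptors and SREBP control, IL-1β lowered 4 and raised 1 in *Lkb1*-/- MEFs and in A2, where 4.74% and 5.68% of all genes were called. In A1 2 fell, where 1.99% of all genes were called, and in wild-type MEFs edgeR called 0, where 2.26% were called and 0 of the 11 had an unadjusted edgeR p under 0.05. With the replicate block 5 fell in each line that lacks LKB1, 1 rose in each, and 1 fell in wild-type MEFs. The block also called more of all genes, with 9.07% lower in *Lkb1*-/- MEFs, 5.94% in A1, 10.6% in A2 and 4.59% in wild-type MEFs. *Insig1*, an SREBP target that retains SREBP in the endoplasmic reticulum, fell from 159 ± 6.27 to 74.1 ± 13.3 CPM in *Lkb1*-/- MEFs (-1.10 ± 0.15, edgeR FDR = 7.7e-05), and by -0.72 ± 0.15 in A1 and -1.08 ± 0.15 in A2 (edgeR FDR = 0.013 and 9.5e-05). In wild-type MEFs it had 227 ± 30.8 and 225 ± 20.8 CPM. *Insig2*, its homolog, named after its values were seen, rose by 0.85 ± 0.13 in *Lkb1*-/- MEFs and 1.13 ± 0.13 in A2 (edgeR FDR = 2.2e-04 and 7.1e-06). In A1 *Insig2* was not called (edgeR FDR = 0.25), and with the replicate block it was (0.35, edgeR FDR = 0.0083).

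*Lrp8* and *Vldlr*, which encode lipoprotein receptors that MYLIP acts on, went in opposite directions. *Lrp8* fell from 225 ± 3.02 CPM in untreated wild-type to 123 ± 4.52 CPM in untreated *Lkb1*-/- MEFs (-0.87 ± 0.08, edgeR FDR = 6.6e-09) and with IL-1β to 84.4 ± 9.44 CPM (-0.54 ± 0.08, edgeR FDR = 1.6e-04). *Vldlr* rose between the same groups from 0.451 ± 0.235 to 8.86 ± 1.56 CPM (4.27 ± 0.42, edgeR FDR = 1.9e-08), and fell in both clones, by -1.95 ± 0.35 in untreated A1 and -2.71 ± 0.37 in untreated A2 (edgeR FDR = 1.9e-04 and 1.1e-05).

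**Figure D5:**
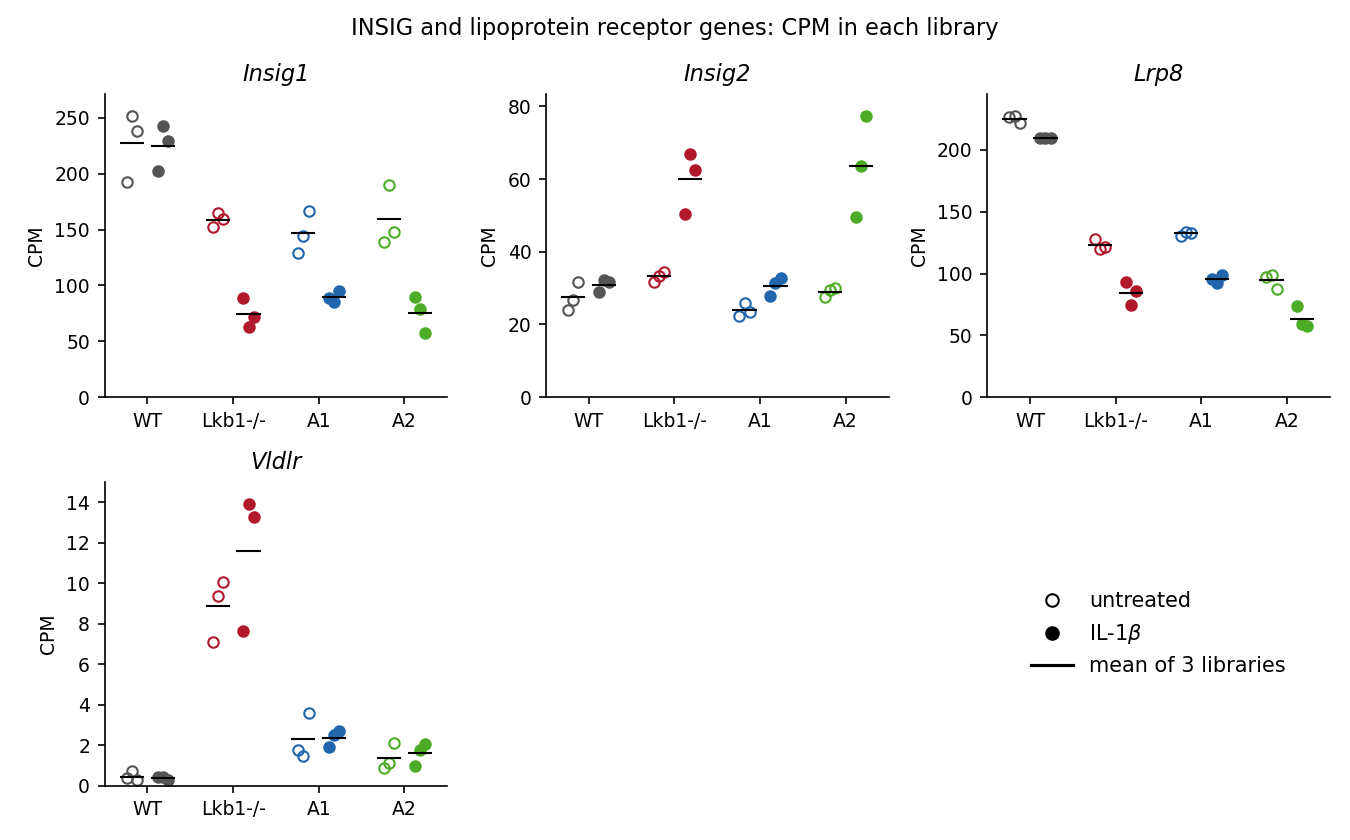
CPM (linear axes from 0) of *Insig1*, *Insig2* and 2 lipoprotein receptor genes in each library, marked as in the plot of the 7 genes. With IL-1β *Insig1* and *Lrp8* were lower in *Lkb1*-/- MEFs, A1 and A2, and *Insig1* stayed near 225 CPM in wild-type MEFs.

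The genes whose log2 CPM followed each member most closely over the 24 libraries were found among the 17521 other genes tested. For *Ch25h* they were its antisense neighbour *Gm26902* (Pearson r = 0.996), *Igfbp3* (0.986) and *Slc7a2* (0.981), and for *Cyp7b1* they were *Sdc1* (0.965), *Gm26902* (0.957) and *BC022960* (0.953). For *Abca1* the closest were *Pax9* (0.994) and *Tnfaip6* (0.992). The closest genes to *Nr1h3* were *BC034090*, *Uty* and *Slc2a10* (0.997 each). The closest gene to *Abcg1* was *Gm42858* (0.991), to *Mylip* *Ube2g1* (0.943) and to *Nr1h2* *Scpep1* (0.916). These values describe libraries that share their line and treatment.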

How the data were processed

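RNA-seq of 24 samples was analysed from the deposited gene tables. The labels name a SMARTER mRNA-Seq kit and the study's methods a KAPA RNA HyperPrep kit. Per the submitters' processing notes, the authors trimmed reads with Trim Galore 0.6.0 and aligned and counted them with STAR 2.7.8a on mm10, and deposited raw counts of read pairs per gene under unstranded and both stranded settings. The second strand setting, which held 95.5% to 96.0% of stranded pairs, was used. The 4 lines that name no gene held 26.7% to 34.4% of pairs and were left out. Counts were tested with edgeR 4.0.16 (quasi-likelihood, TMM scaling, filterByExpr with a minimum count of 10, all 24 libraries in 1 fit of 8 groups, Benjamini-Hochberg FDR under 0.05) on 17522 genes in R 4.3.3, after a test on simulated data. Standard errors were taken from the log2 fold change and its F statistic, and 95% intervals are approximate. Counting intervals and floors cover counting error only. CPM are from library sizes multiplied by their TMM factors. Replicate numbers, which the labels give but do not explain, were read as pairing the libraries of 2 groups where the deviations of every same-numbered pair correlated over 0.1. This held in 9 of 12 comparisons, all 4 of IL-1β among them, with values from 0.0355 to 0.589 (median 0.222) over 84 pairs against a median of -0.115 over 168 pairs of different number, and a fit with the number as a block is given where it changed a call of a member or a list count described. The common biological coefficient of variation was 0.129.

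The members and gene lists were chosen with earlier results of these data known. Outside the 7 members, at most 4 genes a list with a called log2 fold change over 1 were named, together with *Gpr183*, *Hsd3b7*, *Rxra*, *Rxrb*, *Srebf1*, *Vldlr*, *Lrp8* and *Insig1*. A few genes that this rule covers are not reported here. Promoters are from RefSeq on GRCm38.p6, with entries for 5 of the 7. Alternatives were 9 other settings (DESeq2 1.42.0 among them), leaving out each of the 24 libraries in turn, and replicates 2 and 3 alone, chosen after seeing that replicate 1 stood apart.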

Additional observations from a re-analysis of the deposited data

Results flagged for a closer look

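*Insig1* was the 1 gene of the pathway lists whose IL-1β response differed between lines by the test of the difference itself. The response in *Lkb1*-/- MEFs was -1.08 ± 0.21 on the log2 scale below that in wild-type MEFs (edgeR FDR = 0.031), in libraries that averaged 159 and 74.1 CPM in *Lkb1*-/- MEFs and 227 and 225 CPM in wild-type MEFs. The difference lay between -1.23 and -0.97 when each of the 12 libraries was left out, with an edgeR FDR from 0.014 to 0.13, and 9 of these 12 fits lost the call. They were those without any untreated *Lkb1*-/- library, without replicates 2 or 3 of treated *Lkb1*-/- MEFs, without replicates 1 or 3 of untreated wild-type MEFs, and without replicates 2 or 3 of treated wild-type MEFs. The call held under the 10 other alternatives. Genotype and line cannot be told apart here.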

How the results depend on the processing

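Of 49 member log2 fold changes followed through the alternatives, the 1 that changed direction was *Ch25h* in treated A2 against A1, which was not tested (0.08, and -0.09 to 0.31 without 1 library). *Nr1h2* was also called with the stricter filter and with replicates 2 and 3 for treated A2 against *Lkb1*-/- MEFs (0.25 and 0.31, edgeR FDR = 0.031 and 0.015), with those and upper quartile scaling for untreated A2 against A1 (0.23, 0.28 and 0.23, edgeR FDR = 0.042, 0.022 and 0.029), and with replicates 2 and 3 for treated A2 against A1 (0.25, edgeR FDR = 0.040). A minimum of 10 counts in every library left *Cyp7b1*, *Nr1h3* and *Abcg1* untested, so members called fell to 2 in both comparisons of *Lkb1*-/- with wild-type MEFs, 0 in both of A1 and 2 in untreated A2 against *Lkb1*-/- MEFs, 1 in treated A2 against A1, and 0, 0 and 1 for IL-1β in *Lkb1*-/- MEFs, A1 and A2. The newer edgeR method called 1 in untreated A1 and 0 for IL-1β in A1. IL-1β in wild-type MEFs gave 1 with no filter, DESeq2 or replicates 2 and 3, and A1 gave 2 with those replicates. IL-1β in A2 gave 1 when its own groups alone were fitted. With no filter the response differences of *Lkb1*-/- from wild-type MEFs and of A2 from *Lkb1*-/- MEFs gave 1 each. Apart from the first, the cause was not tested. Leaving out 1 library gave 1 to 2 members in untreated A1 against *Lkb1*-/- MEFs, 1 to 3 in treated A2 against A1 and 0 to 1 for IL-1β in A1. *Nr1h3* in untreated A2 against A1 was lost with no filter (0.41, edgeR FDR = 0.059).

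With the replicate block, IL-1β called 2 members in *Lkb1*-/- MEFs and 2 in A1, through *Abcg1* (0.27 and 0.34). In untreated A2 against A1, whose numbers did not pair the libraries, the block called *Nr1h2* (0.23, edgeR FDR = 0.0021). Beside those and the calls given with the results, the block changed no call of the 6 members. Over all genes, IL-1β calls in wild-type MEFs, *Lkb1*-/- MEFs, A1 and A2 went from 396, 831, 348 and 995 to 1629, 2601, 1684 and 3133 with the block, to 954, 1428, 908 and 1643 with no filter and to 921, 1534, 899 and 2556 with replicates 2 and 3. DESeq2 called 624 in wild-type MEFs and 573 in A1, and the A2 groups alone gave 246. Leaving out 1 library gave 203 in wild-type MEFs (untreated replicate 2), 544 in *Lkb1*-/- MEFs (untreated replicate 2), 197 to 227 in A1 (5 of its libraries) and 1890 in A2 (untreated replicate 1). Response differences from *Lkb1*-/- MEFs in wild-type MEFs, A1 and A2 went from 43, 5 and 0 to 311, 36 and 18 with the block, 347, 141 and 68 with no filter, 121, 12 and 12 with DESeq2, and 147, 10 and 6 with replicates 2 and 3. The first was also 76 with upper quartile scaling, 70 with the stricter filter, 70 with its own groups and 23 to 28 without 1 of 4 libraries, and the second 3 with upper quartile scaling or unstranded counts and 0 to 4 without 1 library. Upper quartile scaling changed the IL-1β split in wild-type MEFs from 268 higher and 128 lower to 307 and 228, and moved the median of all genes in *Lkb1*-/- against wild-type MEFs from 0.04 to 0.12. Levels under 3 counts a library, as in wild-type *Ch25h* and *Cyp7b1*, allow no IL-1β fold change there.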
